A study of Homo sapiens with 8 samples.

Results

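Single-cell transcriptomes of HepaRG cells treated with rotenone at 0.2 µM for 24 h were compared with those of cells given the DMSO vehicle for the same time. HepaRG is a human hepatic cell line that was supplied terminally differentiated and forms islands of hepatocyte-like cells among cholangiocyte-like cells. The cells were chosen by the treatment written beside each cell in the deposited cell table, with at least 500 genes detected and at most 20% of unique molecular identifiers (UMIs, counted RNA molecules) from mitochondrially encoded genes. These limits kept 449 of the 753 cells of the single rotenone 0.2 µM culture, which belongs to run 5, out of 12976 cells in the whole series. They kept 250, 127, 311 and 93 cells of the DMSO cultures of runs 3, 4, 5 and 6, or 781 cells in all, and the DMSO culture of run 1, with 2 such cells, was left out. In 2 cultures given rotenone at 0.4 µM for 24 h, of runs 5 and 6, they kept 413 and 110 cells. Those cultures served only to set some values beside the higher dose and in alternative fits. The run is the first number of the treatment name, and no source used here says what it stands for. Rotenone was delivered in the same 0.1% DMSO that the controls received, and the cells of both conditions were released from the plate in an enzyme mix that held actinomycin D and anisomycin, inhibitors of transcription and translation. Cells of every treatment were barcoded together with the Parse split-pool kit and read out as 8 sublibraries, all of which held cells of both conditions.

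Rotenone, a plant-derived pesticide, blocks complex I, the entry point for electrons into the mitochondrial respiratory chain. Cells answer mitochondrial stress in part through the integrated stress response, in which kinases phosphorylate the translation factor eIF2α, most protein synthesis slows and the transcription factor ATF4 is made in larger amounts. ATF4 is known to switch on genes for amino acid synthesis, amino acid uptake, the charging of transfer RNAs and feedback on the response itself.

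The rotenone culture held more UMIs than the controls, in all and per cell, while the median number of sequencing reads per UMI was similar. That number was 4.00 in rotenone cells and 3.75 to 3.86 in the DMSO cultures. Its used cells held 97081214 UMIs against 3417334 to 33404488 in the DMSO cultures, and their median was 184833 UMIs per cell against 17080 to 79381. The median share of mitochondrially encoded UMIs was 16.4% in rotenone cells and 12.3% to 14.8% in 3 DMSO cultures, while the DMSO culture of run 4 stood apart at 2.46%. The limit of 20% removed 40.4% of the rotenone cells and 20.9% of the DMSO cells of run 5. ALB, which encodes the plasma protein albumin and defines hepatocytes, was at 5457 CPM (UMIs of the gene per 1000000 UMIs of the culture) in the rotenone culture and at 5048 to 16059 CPM in the DMSO cultures. Among the defining markers of cholangiocytes, KRT7 stayed at or below 0.830 CPM in every culture, so that this cell type rested on KRT19, SOX9 and a few others. The 11 immune cell markers summed to 26.7 CPM in the rotenone culture and to 13.5 to 35.4 CPM in the DMSO cultures, nearly all of it CD68, and NKG7, HBB and HBA1 had no UMI. In such sums, fewer cells of a type and less RNA per cell cannot be told apart.

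Rotenone at 0.2 µM moved a large share of the transcriptome. The most prominent rises were in genes of the integrated stress response and of amino acid supply, such as TRIB3, ASNS and the cytosolic tRNA synthetases, and in genes of the circadian clock. Among protein-coding genes, prominent falls were in liver genes such as bile acid transporters and conjugation enzymes, and the long non-coding RNAs, of which 55.9% were called lower, included the host transcript of miR-122. Expression per culture is given as CPM, and a gene was called when the rotenone culture differed at least 2-fold from the mean of the 4 DMSO cultures and at least 2-fold the same way from the DMSO culture of run 5. Of 11854 genes with at least 10 CPM and 50 UMIs in the higher condition, 1541 were called higher (13.0%) and 2108 were called lower (17.8%). All but a few lay outside the range of the controls, with 1537 of the former above all 4 DMSO cultures and 2100 of the latter below them. The falls were also larger, since 960 genes were at least 4-fold lower and 296 at least 4-fold higher.

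A single treated culture gives no replicate check of its own. edgeR's quasi-likelihood test, fitted to the 4 DMSO cultures and the rotenone culture, sets each difference against the spread between the controls and assumes that the lone rotenone culture would vary as they do. The paper states that the conditions of its study, whose main experiment used another platform, were not replicated biologically. The treatment names number the DMSO cultures of runs 3, 4, 5 and 6 as replicates 2, 3, 4 and 5. No source used here says what kind of replicate is meant or how these cultures relate to that design. Nor does any say whether they were grown separately. They may therefore not be biological replicates, and their spread may be technical. In that case the edgeR p-values and standard errors given here would not cover variation between independent cultures. At a Benjamini-Hochberg adjusted p under 0.05, 3478 of 22559 genes were higher (15.4%) and 5193 were lower (23.0%), and 1518 and 2072 of the genes called by fold were among them. The balance of rises and falls depended on the scaling. With total UMIs the median log2 ratio over all genes compared was 0.15, with TMM factors it was 0.32 and with DESeq2 size factors 0.36, and the fold calls then split into 2071 higher and 1836 lower or 2357 higher and 1690 lower. The edgeR calls split into 4807 higher and 4437 lower with DESeq2 size factors. Ratios below are therefore read against the median of 0.15. Long non-coding RNAs lay well below it, with a median of -1.37 and 55.9% of 1288 called lower. Of all 10402 protein-coding genes compared, 13.9% were called higher and 12.8% lower. Protein-coding genes longer than 300 kb had a median of -0.86, against 0.12 for 100 to 300 kb, 0.35 for 10 to 100 kb and 0.33 under 10 kb. Against the DMSO culture of run 5 alone these medians were -0.66, 0.23, 0.31 and -0.006.

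**Figure D1:**
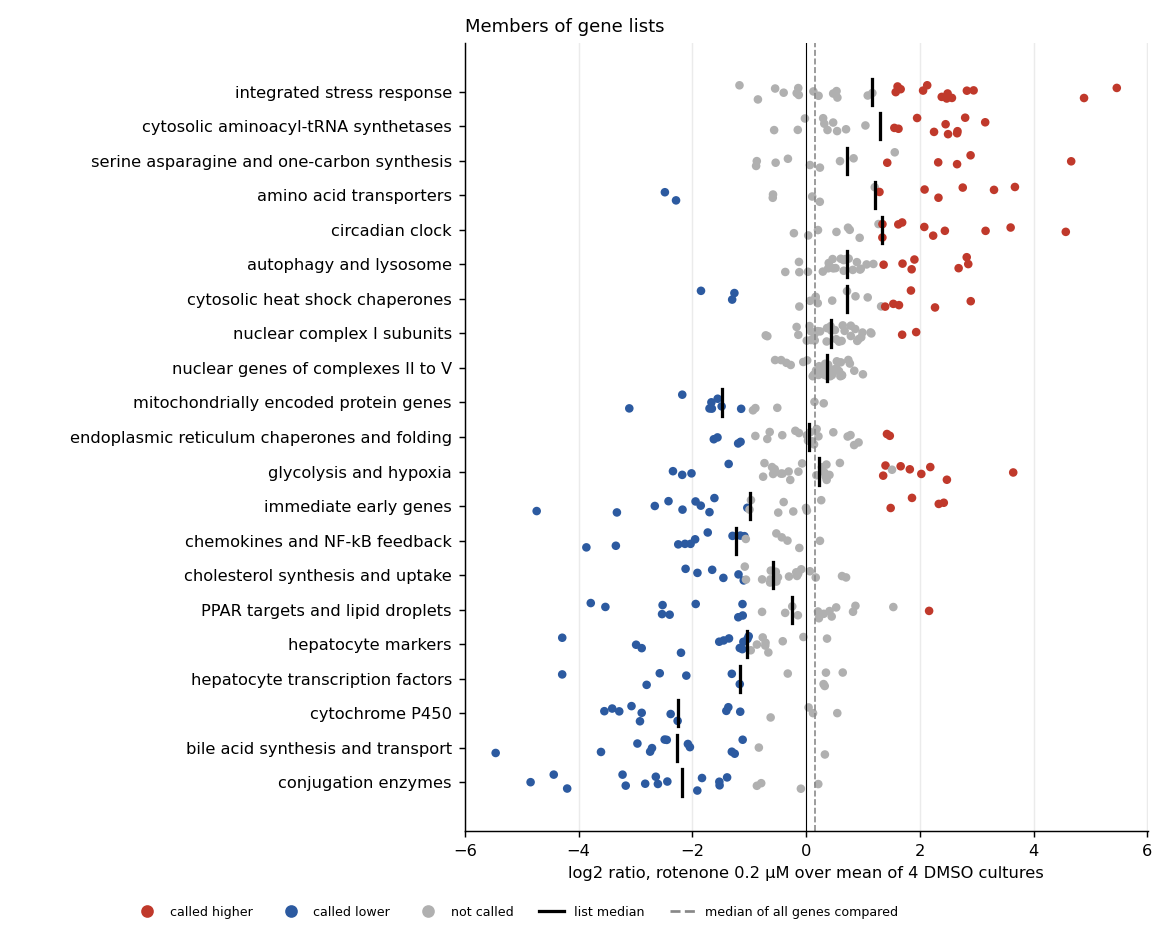
Each point is a gene of a list and its log2 ratio of rotenone 0.2 µM over the mean of 4 DMSO cultures; red and blue points were called higher and lower, black bars are list medians and the dashed line is the median of all genes compared. The stress, tRNA synthetase and clock lists lie to the right of the dashed line, and the mitochondrially encoded and liver lists to the left.

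The integrated stress response list held 27 genes that could be compared. Of these 13 were called higher and none lower, with a median log2 ratio of 1.16, and edgeR placed 15 higher and 2 lower. ATF4 was at 229 CPM in the rotenone culture and at 51.0, 39.2, 65.1 and 54.4 CPM in the DMSO cultures of runs 3, 4, 5 and 6. It rose by 2.13 on the log2 scale (edgeR log2 fold change 2.12 ± 0.24 (SE), adjusted p = 1.37e-04). TRIB3, a pseudokinase that feeds back on ATF4, was at 190 CPM against 6.21, 7.90, 7.48 and 4.15 CPM. Its 29.6-fold rise (edgeR adjusted p = 5.11e-06) was among the 15 largest of any gene with at least 50 CPM. The log2 ratio of TRIB3 to the DMSO culture of run 5 alone was 4.67, with a 95% interval of 4.49 to 4.85 that covers counting error only. Within the rotenone culture TRIB3 was at 163 to 214 CPM in each of the 8 sublibraries.

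The rise reached genes with different tasks in the response. CHAC1, which degrades glutathione, was at 19.7 CPM against 0.239 to 0.838 CPM in the DMSO cultures. NUPR1, a stress-induced chromatin protein, was at 142 CPM against 11.1 to 27.5 CPM, and XPOT, the exporter of tRNA from the nucleus, at 246 CPM against 27.5 to 36.9 CPM. PPP1R15A, the phosphatase subunit that reverses eIF2α phosphorylation, was at 161 CPM against 33.9 to 69.8 CPM (edgeR adjusted p = 1.96e-03). SESN2, a leucine sensor that restrains mTORC1, was at 182 CPM against 30.1 to 54.3 CPM. In each of these genes the rotenone culture lay above all 4 controls.

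DDIT3, which encodes the pro-apoptotic factor CHOP, did not follow them. It was at 128 CPM in the rotenone culture and at 77.9, 89.8, 118 and 82.0 CPM in the DMSO cultures, a log2 difference of 0.47 that did not pass (edgeR adjusted p = 0.165). Its ratio to the DMSO culture of run 5 was 0.12 on the log2 scale. The secreted stress hormone GDF15 was at 158 CPM against 68.3, 77.3, 73.1 and 79.3 CPM, a 2.13-fold rise above 4 closely spaced controls (edgeR adjusted p = 2.29e-03). FGF21, a hormone of fasting and mitochondrial stress that was looked at after its values were seen, had 99 UMIs in the rotenone culture and 1 UMI over the 4 DMSO cultures. Its log2 ratio to run 5 was 5.09, with a counting interval of 2.58 to 10.4, and at 1.02 CPM it was below the level at which genes were compared.

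**Figure D2:**
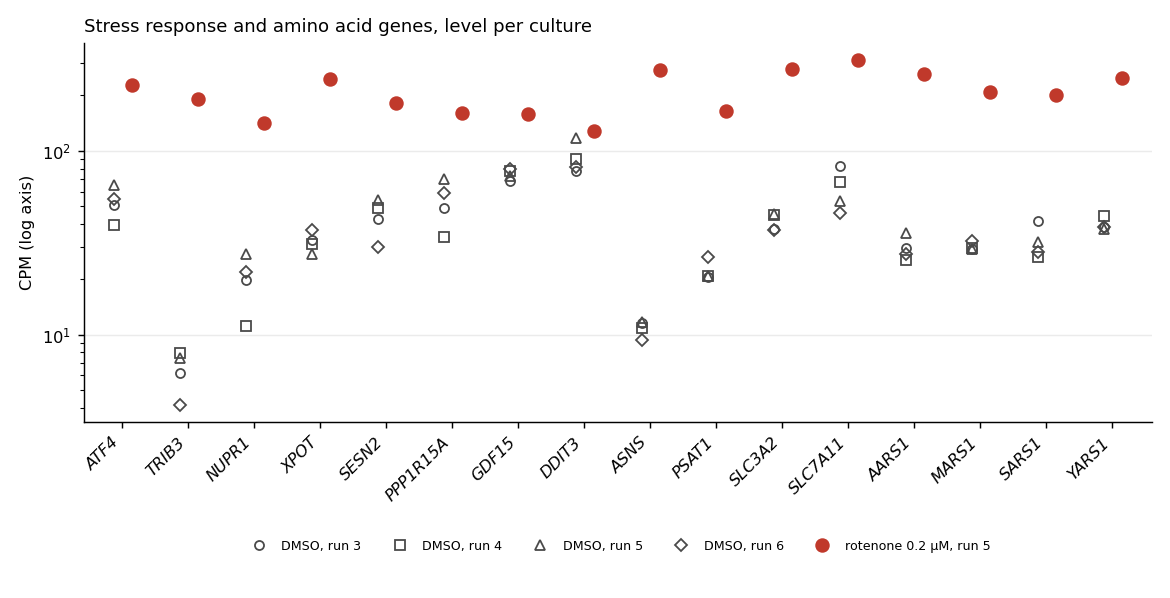
CPM of 16 genes on a log axis, with open symbols for the 4 DMSO cultures and red points for the rotenone 0.2 µM culture. The red points lie above the open symbols in every column, by 29.6-fold over the DMSO mean for TRIB3 and by 1.39-fold for DDIT3.

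Many, but not most, genes of amino acid supply were called higher. Among cytosolic aminoacyl-tRNA synthetases, the enzymes that load amino acids onto tRNAs, 10 of 20 were called higher and none lower, with a median log2 ratio of 1.30, and edgeR placed 12 higher and none lower. The 20 genes summed to 3217 CPM in the rotenone culture and to 971 to 1035 CPM in the DMSO cultures. AARS1, for alanine, was at 262 CPM against 29.5, 25.5, 35.9 and 27.4 CPM (edgeR log2 fold change 3.13 ± 0.22 (SE), adjusted p = 1.77e-05). MARS1 was at 209 CPM against 29.2 to 32.4 CPM, SARS1 at 202 CPM against 26.3 to 41.3 CPM and YARS1 at 249 CPM against 37.6 to 43.9 CPM. These are the synthetases for methionine, serine and tyrosine, and none of their control values came near the rotenone value.

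In the serine, asparagine and one-carbon list, 5 of 14 genes were called higher and none lower. ASNS, asparagine synthetase, was at 275 CPM against 11.6, 10.8, 11.6 and 9.34 CPM, a 25.3-fold rise (edgeR log2 fold change 4.64 ± 0.21 (SE), adjusted p = 9.45e-07). PSAT1 and PHGDH, enzymes of serine synthesis, were at 164 CPM against 20.5 to 26.4 CPM and at 45.9 CPM against 3.94 to 12.2 CPM. GPT2, the mitochondrial alanine transaminase, was at 40.0 CPM against 6.02 to 10.2 CPM. All of these values were above the controls. Of 13 amino acid transporters 6 were called higher. SLC3A2, the heavy chain shared by several exchangers, was at 277 CPM against 36.9 to 45.6 CPM, and SLC7A11, its cystine-carrying partner, at 312 CPM against 46.1 to 82.4 CPM. SLC1A4 and SLC6A9, carriers of neutral amino acids and of glycine, were 9.87-fold and 12.7-fold higher. The transporters SLC38A4 and SLC1A1 went the other way, at 9.74 CPM against 48.6 to 60.7 CPM and at 10.6 CPM against 42.5 to 59.1 CPM.

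The promoters of these genes are shown because ATF4, in pairs with C/EBP proteins, is known to bind the element TGATGNAA. It was searched on both strands of RefSeq promoters (GRCh38.p14, 250 bases before to 50 bases after the start). Of 27305 promoters 3.67% held it, and of the 8967 of genes compared by fold 1.90%. Of the promoters in that table, 6 of 16 tRNA synthetases, 3 of 13 serine, asparagine and one-carbon genes, 3 of 11 transporters and 4 of 24 stress response genes held it. Among the tRNA synthetases it stood in 5 of 9 genes called higher and in NARS1 among the 7 others, while in the stress response list it stood in 1 of 10 genes called higher and in 3 of 14 others. A match describes the letters and not a bound site. The promoter of ASNS (chr7:97872359-97872658, minus strand) holds it 68 bases before the start and that of AARS1 (chr16:70289457-70289756, minus strand) 187 bases before, where it reads on the opposite strand. Capitals mark the element.
ASNS: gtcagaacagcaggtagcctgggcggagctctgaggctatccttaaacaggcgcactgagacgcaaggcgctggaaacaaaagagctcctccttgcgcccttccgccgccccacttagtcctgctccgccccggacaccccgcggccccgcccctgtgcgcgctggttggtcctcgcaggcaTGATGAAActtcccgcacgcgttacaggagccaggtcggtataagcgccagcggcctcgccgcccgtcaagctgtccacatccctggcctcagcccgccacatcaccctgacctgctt
AARS1: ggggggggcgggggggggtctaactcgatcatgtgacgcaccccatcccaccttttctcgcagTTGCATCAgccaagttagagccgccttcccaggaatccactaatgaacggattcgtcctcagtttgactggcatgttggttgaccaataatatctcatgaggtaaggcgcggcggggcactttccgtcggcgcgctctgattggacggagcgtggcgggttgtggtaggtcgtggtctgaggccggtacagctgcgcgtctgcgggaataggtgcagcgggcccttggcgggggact

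The element with 12 bases on either side is given next for other genes called higher, on the strand where it reads TGATGNAA, to show how far the flanks agree. CARS1 (chr11:3057406-3057437), MARS1 (chr12:57488052-57488083) and TARS1 (chr5:33440955-33440986) are tRNA synthetases, and CHAC1 (chr15:40953250-40953281) and MTHFD1L (chr6:150866345-150866376), a one-carbon enzyme, are from the other lists. In all 5 the variable base is C, while ASNS, printed above, and 3 transporters called higher that are not printed, SLC3A2, SLC7A1 and SLC38A1, have A or T there. In the 3 synthetases the element lies within 4 bases of the start.
CARS1: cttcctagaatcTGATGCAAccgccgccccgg
MARS1: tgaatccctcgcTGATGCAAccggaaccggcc
TARS1: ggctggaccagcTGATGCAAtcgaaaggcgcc
CHAC1: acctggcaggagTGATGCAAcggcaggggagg
MTHFD1L: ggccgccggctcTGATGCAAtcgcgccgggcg

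Cell by cell, most rotenone cells had a larger share of their UMIs in the stress response and tRNA synthetase lists than most DMSO cells. The stress response list made up a median of 0.295% of a cell's UMIs in the rotenone culture, with quartiles of 0.267% and 0.319%, and medians of 0.135% to 0.158% in the DMSO cultures. The upper quartile of the DMSO culture of run 5 was exceeded by 430 of 449 rotenone cells for this list and by 444 of 449 for the tRNA synthetases. When each cell was thinned to 10000 UMIs, which left out 2 rotenone cells and 4 to 10 cells per DMSO culture, TRIB3 was seen in 75.4% of rotenone cells (exact binomial 95% interval 71.1% to 79.3%) and in 3.37% to 10.1% of cells of the DMSO cultures. ASNS was seen in 85.5% (81.8% to 88.6%) and in 6.94% to 12.4%. A single random draw adds error of its own, and the shares expected over all possible draws were 76.6% for TRIB3 and 82.5% for ASNS in rotenone cells, and 7.42% and 10.3% in DMSO cells of run 5. Without thinning the shares of TRIB3 and ASNS were 96.4% and 97.1% in rotenone cells and 40.2% and 43.7% in DMSO cells of run 5. PTPRC, an immune cell gene that HepaRG should lack, was seen in 0.447% of thinned rotenone cells and in at most 1.12% of thinned DMSO cells. Without thinning PTPRC was seen in 7.35% of rotenone cells and in 2.89% of DMSO cells of run 5, at median depths of 184833 and 79381 UMIs, and CD3E in 0.891% and 0.643%. Intervals cover counting error only.

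**Figure D3:**
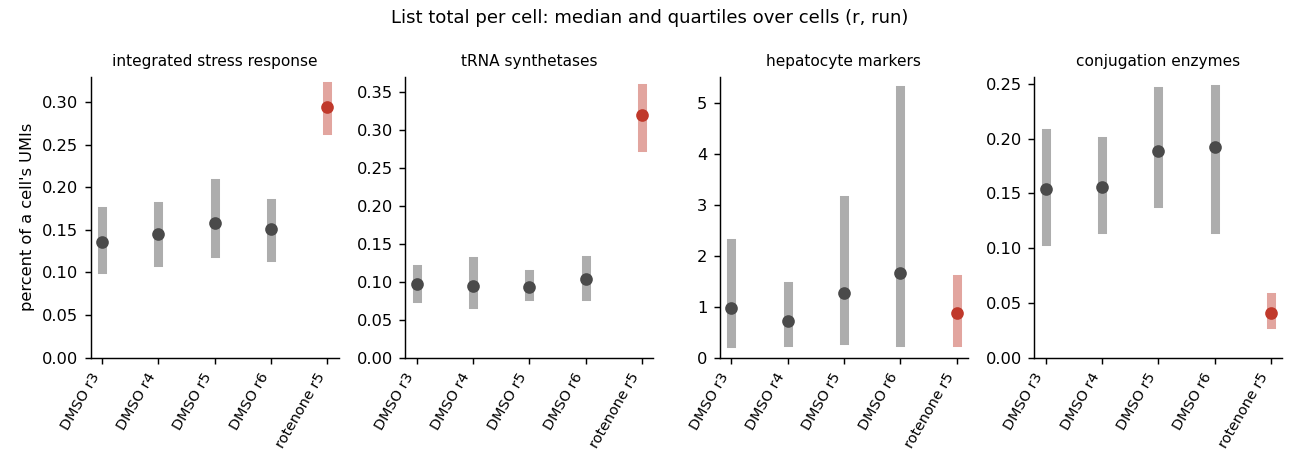
Percent of a cell's UMIs taken by 4 gene lists, as the median (point) and quartiles (bar) over the cells of each culture, with DMSO in grey and rotenone 0.2 µM in red. The rotenone quartile bar lies above all DMSO bars for the stress response and tRNA synthetases, overlaps them for hepatocyte markers and lies below them for conjugation enzymes.

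Most protein genes encoded in mitochondrial DNA had lower levels, while its ribosomal RNAs did not. Of 13 protein genes encoded in mitochondrial DNA, 8 were called lower and none higher, with a median log2 ratio of -1.49, and edgeR placed 6 lower and none higher. MT-ND6, a complex I subunit and the only protein gene of the light strand, was at 17.5 CPM against 196, 128, 98.7 and 181 CPM (edgeR log2 fold change -3.11 ± 0.42 (SE), adjusted p = 3.39e-04). MT-ND3 was at 12.2 CPM against 64.3, 18.1, 77.3 and 61.6 CPM, and MT-ND5 at 1413 CPM against 5685, 2717, 4961 and 5007 CPM. MT-CO1, of complex IV, was at 6319 CPM against 1696 to 7677 CPM and so lay within the control range. The low control values of MT-ND3 and MT-CO1 were those of run 4, whose mitochondrial share was small. Summed over the 13 genes, the rotenone culture held 12690 CPM, within the DMSO range of 7640 to 22648 CPM, and below 17932 CPM, the lowest of the 3 DMSO cultures without run 4. Without run 4, 10 of the 13 genes were called lower and edgeR placed 11 lower. The limit on mitochondrial UMIs acts on the share of all mitochondrially encoded UMIs, these genes and the mitochondrial ribosomal RNAs included. Without that limit 8 of the 13 were called lower. In the cells above the limit, which were left out, MT-ND6 was at 21.3 CPM in rotenone cells and 119 CPM in DMSO cells of run 5. The mitochondrial ribosomal RNAs MT-RNR1 and MT-RNR2, the RNA parts of the organelle ribosome, summed to 140943 CPM against 28096 to 121779 CPM in the DMSO cultures. Both lay above all 4 controls, with log2 ratios of 0.58 and 0.54, and neither was called by fold or by edgeR.

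No nuclear gene of the respiratory chain was called lower. Of 35 nuclear complex I subunits 2 were called higher and none lower, with a median log2 ratio of 0.44. Those called were NDUFS7, at 36.5 CPM against 7.61 to 13.6 CPM, and NDUFA12, at 55.8 CPM against 15.5 to 18.7 CPM. Under TMM or DESeq2 size factors 7 were called higher. None of 38 nuclear genes of complexes II to V was called in either direction, with a median of 0.37, and edgeR placed 2 of them higher. Of 14 mitochondrial chaperones and proteases, a share near the 13.0% of all genes was called higher, namely the chaperone HSPA9, at 436 CPM against 150 to 184 CPM, and the protease LONP1, at 61.8 CPM against 9.66 to 22.2 CPM. Among 18 genes of mitochondrial biogenesis and mitophagy, the removal of damaged mitochondria, 5 were called higher. BNIP3L, a mitophagy receptor, was at 183 CPM against 44.1 to 58.6 CPM, MFN2, which fuses outer membranes, at 114 CPM against 34.2 to 42.6 CPM, PINK1, the mitophagy kinase, at 26.0 CPM against 7.90 to 12.8 CPM and GABPA, a transcription factor for respiratory genes, at 60.2 CPM against 20.4 to 26.6 CPM. Without the limit on mitochondrial UMIs, 3 of the list were called higher.

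Among cytosolic heat shock chaperones 6 of 19 were called higher and 3 lower. Of all genes 13.0% were called higher and 17.8% lower, and of protein-coding genes 13.9% and 12.8%, so the share called lower was ordinary. HSPA1A and HSPA1B, near-identical genes for inducible HSP70 whose reads may be split by the counting, were at 79.1 CPM against 13.5 to 18.9 CPM and at 80.6 CPM against 9.13 to 13.1 CPM. STIP1, which links HSP70 to HSP90, was 3.59-fold higher and DNAJB6, an HSP40 co-chaperone, 3.10-fold higher. Other co-chaperones fell, DNAJB4 to 15.7 CPM against 43.0 to 75.7 CPM and DNAJA1 to 48.9 CPM against 106 to 137 CPM, as did the small heat shock protein HSPB8, to 56.5 CPM against 112 to 155 CPM. Endoplasmic reticulum chaperones showed no common direction, with 2 of 24 called higher, 4 lower and a median log2 ratio of 0.05. Their share called lower was also near that of all genes. HSPA5, the main chaperone of that compartment, was at 375 CPM against 313, 288, 378 and 313 CPM, inside the control range (edgeR adjusted p = 0.508). DNAJB11, CRELD2, MANF and PDIA3, all folding factors of the compartment, fell by 1.62, 1.56, 1.20 and 1.15 on the log2 scale, while the stress sensor ERN1 was at 144 CPM against 50.4 to 55.8 CPM and DERL1, of the degradation pathway, at 79.7 CPM against 26.9 to 30.8 CPM. Of 23 targets of NRF2, the antioxidant transcription factor, 2 were called higher and 5 lower. The share called lower was above the 12.8% of protein-coding genes and nearer the 17.8% of all genes. Those called higher were SLC7A11 and SRXN1, which repairs oxidised peroxiredoxins and stood at 15.6 CPM against 0.585 to 1.83 CPM. The genes called lower included AKR1C2, an aldo-keto reductase, at 110 CPM against 195 to 317 CPM.

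Many clock genes rose. Of 18 circadian genes 10 were called higher and none lower, with a median log2 ratio of 1.34, 16 lay above all 4 controls, and edgeR placed 14 higher and none lower. NR1D1, the repressor REV-ERBα, was at 264 CPM against 20.6, 16.7, 34.9 and 15.1 CPM (edgeR log2 fold change 3.55 ± 0.32 (SE), adjusted p = 4.41e-05). CIART, a repressor of the clock, was at 58.5 CPM against 1.04 to 4.52 CPM, DBP, a clock output factor, at 15.7 CPM against 0.797 to 2.34 CPM and BHLHE41, another repressor, at 19.6 CPM against 2.55 to 4.36 CPM. In thinned cells NR1D1 was seen in 57.5% of rotenone cells (52.8% to 62.1%) and in 12.4% to 24.1% of DMSO cells, with 58.2% expected over all draws. The DMSO culture of run 5 had the highest control level of NR1D1 and CIART, and both genes exceeded it. The times of day at which cultures were treated and collected were not stated in the sources read.

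The clock factors CLOCK and BMAL1 are known to bind the E-box CACGTG, and the promoter of CIART (chr1:150282304-150282603, plus strand), shown because it was the clock gene with the largest ratio, holds it 3 times. It was present in 5 of 17 clock promoters, in 3 of 10 called higher and in 2 of 7 others. Of all promoters 7.43% held it, and of those of genes compared by fold 10.3%. The motif is palindromic, so that both strands give the same matches, which are in capitals.
CIART: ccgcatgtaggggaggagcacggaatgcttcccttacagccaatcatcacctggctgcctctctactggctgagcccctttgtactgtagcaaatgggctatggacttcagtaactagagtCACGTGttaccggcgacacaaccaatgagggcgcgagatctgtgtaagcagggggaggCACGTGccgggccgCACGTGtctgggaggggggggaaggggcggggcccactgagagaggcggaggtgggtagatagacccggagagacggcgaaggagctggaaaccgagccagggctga

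Genes of autophagy and the lysosome were shifted upward as a list. Of 28, 7 were called higher and none lower, and 21 lay above all 4 controls, with a median log2 ratio of 0.72. The called genes with the largest ratios belong to nutrient signalling at the lysosome. RRAGC and RRAGD, GTPases that recruit mTORC1, were at 90.4 CPM against 11.0 to 13.4 CPM and at 66.2 CPM against 14.7 to 19.9 CPM. FLCN, which acts on these GTPases, was at 223 CPM against 28.4, 35.1, 38.2 and 24.3 CPM (edgeR adjusted p = 3.17e-05), and ULK1, the kinase that starts autophagy, at 180 CPM against 20.1 to 42.4 CPM. SQSTM1, the cargo receptor p62, was at 464 CPM against 301 to 414 CPM and did not pass (edgeR adjusted p = 0.231). In the list of AMPK and mTOR feedback genes, SESN2, DDIT4 and TSC1, all brakes on mTORC1, were called higher. TSC1 was at 133 CPM against 30.2 to 37.7 CPM and DDIT4 at 93.7 CPM against 9.07 to 27.2 CPM. DEPTOR, another mTOR inhibitor, was lower at 19.7 CPM against 62.5 to 75.8 CPM.

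**Figure D4:**
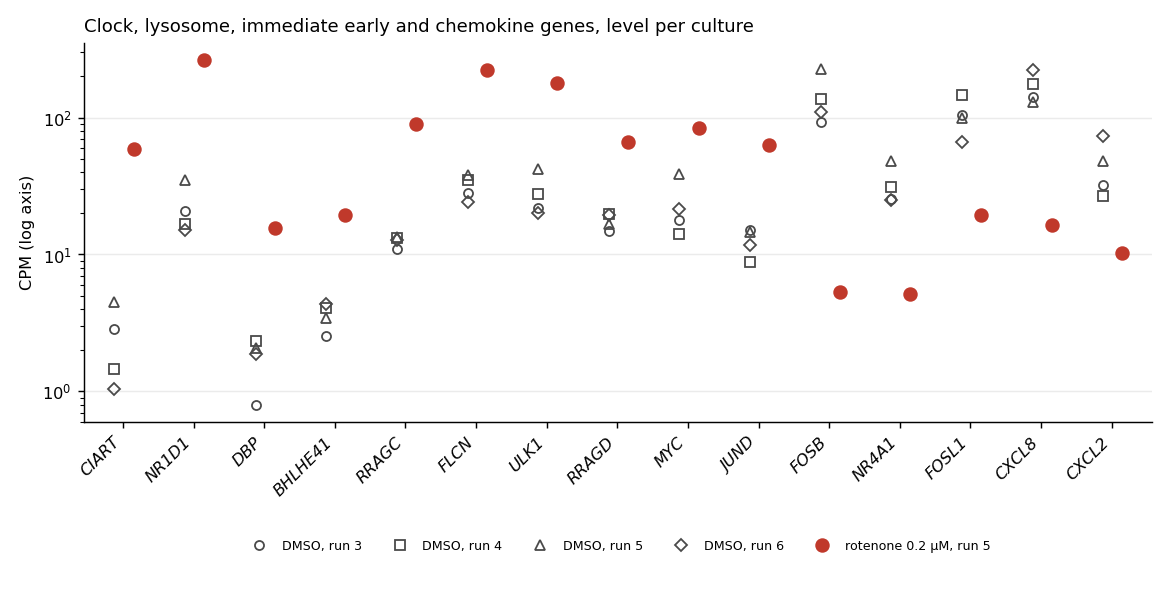
CPM of clock, lysosomal, immediate early and chemokine genes on a log axis, with open symbols for the 4 DMSO cultures and red points for the rotenone 0.2 µM culture. From CIART to JUND the red points lie above all open symbols, and from FOSB to CXCL2 below them.

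Immediate early genes, which answer signals within minutes, fell more often than they rose, with 10 of 22 called lower and 4 higher. FOSB was at 5.32 CPM against 92.9, 136, 228 and 110 CPM (edgeR adjusted p = 1.50e-04), and the orphan receptors NR4A3 and NR4A1 were 10.0-fold and 6.33-fold lower. FOSL1, a partner of JUN, was at 19.4 CPM against 66.2 to 146 CPM. The 4 called higher were JUND, at 63.4 CPM against 8.78 to 15.1 CPM, KLF4, at 12.03 CPM against 1.67 to 3.32 CPM, MYC, at 83.5 CPM against 14.05 to 38.8 CPM, and the phosphatase DUSP1, at 273 CPM against 79.6 to 129 CPM. Of 16 chemokines and NF-κB feedback genes 10 were called lower and none higher, with a median log2 ratio of -1.23. CXCL8, which attracts neutrophils, was at 16.5 CPM against 141, 176, 130 and 225 CPM. CXCL1 was 14.6-fold lower, and CCL20 and CXCL2 were at 4.80 CPM against 18.9 to 27.2 CPM and at 10.3 CPM against 26.9 to 73.7 CPM.

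Liver functions fell unevenly. The transport and conversion genes were the lowest. Of 14 bile acid genes 12 were called lower, of 18 conjugation enzymes 14 and of 15 cytochromes P450 11, with none of the 3 lists holding a gene called higher and median log2 ratios of -2.27, -2.18 and -2.26. ABCB11, the pump that exports bile acids, was at 0.567 CPM against 13.2, 32.8, 22.5 and 31.3 CPM (edgeR log2 fold change -5.43 ± 0.62 (SE), adjusted p = 1.37e-04). SLCO1B1, an uptake carrier of bile acids and drugs, was at 4.86 CPM against 50.9 to 70.6 CPM. The glucuronidating enzymes UGT2B15 and UGT2B4 were at 2.56 CPM against 43.6 to 118 CPM and at 4.53 CPM against 52.4 to 149 CPM, and SULT1E1, which sulphates oestrogen, was 18.4-fold lower. The drug-oxidising CYP2C8, CYP2C19 and CYP3A4 were 11.7-fold, 10.6-fold and 7.42-fold lower. None of these values overlapped the controls.

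Hepatocyte markers, 12 of 21 of which were called lower with none higher and a median log2 ratio of -1.03, held members that did not pass. ALB lay within the control range (log2 ratio -0.72, edgeR adjusted p = 0.325). APOB, the protein of very low density lipoprotein, was at 2382 CPM against 3174, 3364, 3800 and 4772 CPM, below all controls but not past the test (edgeR adjusted p = 0.144). ARG1 and CPS1, enzymes of the urea cycle, were at 0.865 CPM against 12 to 20.8 CPM and at 28.7 CPM against 172 to 322 CPM. ASGR1, a receptor of the hepatocyte surface, was at 14.3 CPM against 57.9 to 72.2 CPM. Under DESeq2 size factors 7 of the 21 were called lower. In thinned cells CPS1 was seen in 21.5% of rotenone cells (17.8% to 25.6%) and in 41.0% to 47.2% of DMSO cells, with 19.4% expected over all draws in rotenone cells, while without thinning the shares were 76.6% and, in run 5, 78.1%. Per cell, the marker list took a median of 0.882% of UMIs in the rotenone culture and 0.726% to 1.65% in the DMSO cultures, which overlapped it, whereas the conjugation list took 0.0406% and 0.154% to 0.192%.

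Among transcription factors that maintain the hepatocyte state, 6 of 11 were called lower and none higher. HNF4A was at 48.9 CPM against 100, 95.7, 137 and 106 CPM (edgeR log2 fold change -1.17 ± 0.28 (SE), adjusted p = 6.98e-03). ONECUT1 was at 4.74 CPM against 64.1 to 117 CPM and the receptors NR5A2 and NR1I2, which act on bile acid and drug metabolism genes, at 8.92 CPM against 60.4 to 64.4 CPM and at 2.40 CPM against 11.1 to 18.4 CPM. PROX1 was 4.31-fold lower. MIR122HG, the host transcript of the liver microRNA miR-122, had the lowest ratio of all genes named by size. It was at 0.999 CPM, from 97 UMIs, against 155, 127, 103 and 201 CPM, or 147-fold lower (edgeR adjusted p = 1.79e-05). AFM, a vitamin E-binding relative of albumin, was 28.9-fold lower.

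**Figure D5:**
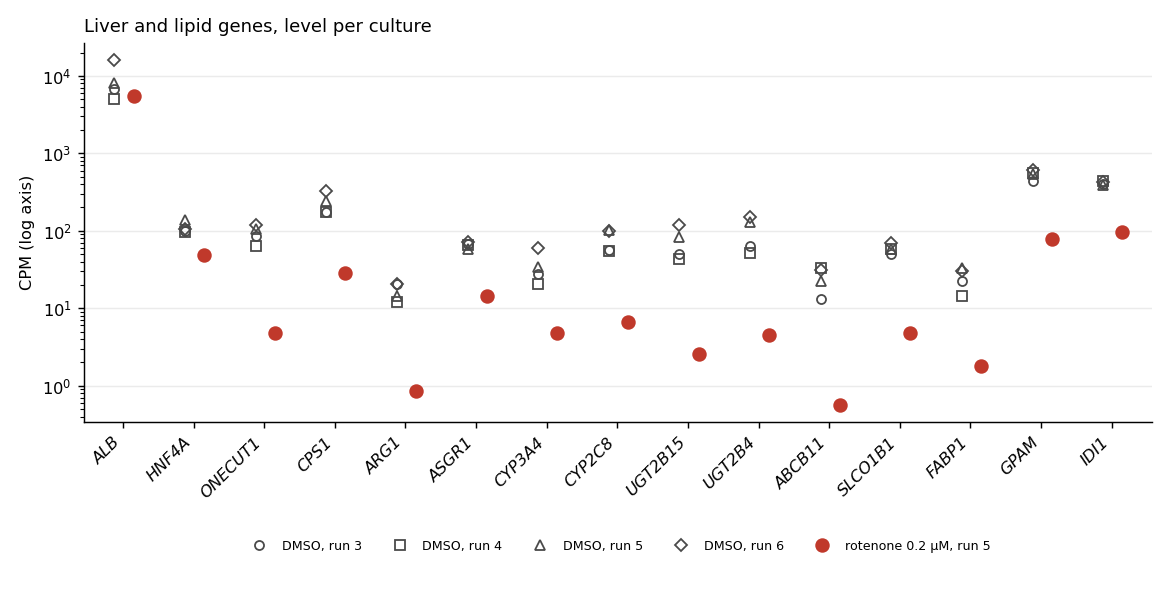
CPM of liver and lipid genes on a log axis, with open symbols for the 4 DMSO cultures and red points for the rotenone 0.2 µM culture. Red points lie below all open symbols except for ALB, where 5457 CPM falls between 5048 and 16059 CPM.

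Markers of other cell types that were called by fold were lower, and 17.8% of all genes and 12.8% of protein-coding genes were called lower. Of 6 cholangiocyte markers compared 2 were called lower, among them KRT19 at 30.0 CPM against 66.9 to 116 CPM, while 2 others lay above all 4 controls. The cholangiocyte list summed to 331 CPM, within the DMSO range of 325 to 467 CPM. SOX9 was at 34.0 CPM against 15.1 to 26.0 CPM and did not pass (edgeR adjusted p = 0.0694), and CFTR and SCTR were at 0.937 and 1.33 CPM in the rotenone culture. The stellate cell and fibroblast list summed to 365 CPM against 334 to 647 CPM, with COL3A1, a collagen, lower at 10.1 CPM against 36.6 to 109 CPM. Endothelial markers summed to 23.0 CPM against 59.0 to 100 CPM, most of it KDR. Of 17 cell cycle genes 5 were called higher by fold, and fewer genes of the list passed edgeR in that direction. The sum of the list, 690 CPM, lay within the DMSO range of 268 to 972 CPM. The part of a changed mix of cells in the values above was not tested.

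More lipid genes were called lower than higher. Of all genes 17.8% were called lower and 13.0% higher, and of protein-coding genes 12.8% and 13.9%. Of 23 PPAR target and lipid droplet genes 9 were called lower and 1 higher. FABP1, the fatty acid carrier of the hepatocyte, was at 1.803 CPM against 14.3 to 32.8 CPM, and ANGPTL4, a lipase inhibitor, at 1.71 CPM against 16.2 to 24.5 CPM. PLIN5, a droplet coat protein, was 5.76-fold lower, whereas PLIN2, the main droplet coat, was at 145 CPM against 143, 153, 168 and 176 CPM, within the controls (edgeR adjusted p = 0.643). The gene called higher was CD36, a fatty acid importer, at 18.7 CPM against 3.38 to 4.98 CPM. Among 20 genes of fatty acid and triglyceride synthesis 6 were called lower, with ELOVL6, which lengthens fatty acids, at 15.8 CPM against 116 to 155 CPM, GPAM, the first step of triglyceride synthesis, at 78.3 CPM against 433 to 612 CPM and PNPLA3 at 37.0 CPM against 182 to 209 CPM. PNPLA2, the triglyceride lipase ATGL, was called higher, at 209 CPM against 30.1 to 89.0 CPM. Of 24 cholesterol genes 6 were called lower and none higher, a share above the 12.8% of protein-coding genes called lower. The lowest were IDI1 and FDPS, early enzymes of isoprenoid synthesis, at 95.4 CPM against 393 to 437 CPM and at 63.5 CPM against 211 to 262 CPM.

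Genes of sugar metabolism were called in both directions. Of 32 glycolysis and hypoxia genes 8 were called higher and 4 lower. Of all genes 13.0% were called higher and 17.8% lower, and of protein-coding genes 13.9% and 12.8%. The share of this list called lower was therefore ordinary. HK1, a hexokinase, was at 53.7 CPM against 3.51, 6.44, 3.74 and 3.53 CPM (edgeR adjusted p = 3.18e-05). NDRG1, a hypoxia-induced gene, was at 229 CPM against 32.2 to 61.5 CPM. PDK4, a kinase that inhibits pyruvate dehydrogenase, was at 295 CPM against 61.5 to 67.1 CPM. P4HA2, a collagen hydroxylase, was at 65.0 CPM against 13.2 to 17.6 CPM. EGLN3, a hypoxia-induced oxygen sensor, ANKRD37 and the phosphofructokinase PFKP were 4.53-fold, 4.05-fold and 2.57-fold lower. HIF1A itself was at 258 CPM against 274 to 398 CPM and did not pass (edgeR adjusted p = 0.242). Of 8 genes of gluconeogenesis and its control 2 were called higher and 3 lower. Among the latter G6PC1, the last step of glucose release, was at 0.371 CPM against 12.03 to 18.6 CPM. IGFBP1, an insulin-repressed secreted protein, was at 51.8 CPM against 1.99 to 6.02 CPM, and IRS2, an insulin receptor substrate, at 360 CPM against 101 to 153 CPM.

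The largest rise of all named genes was that of MGC4859, a long non-coding RNA, at 135 CPM against 1.04 to 3.23 CPM. The long non-coding RNAs LINC02232 and LINC01505 were 21.1-fold and 10.9-fold higher. Other large rises outside the lists were in genes of varied function, among them AKNA, which was 11.2-fold higher. KCP, a regulator of BMP signalling, was at 57.4 CPM against 0.585 to 2.07 CPM. UNC5B, a netrin receptor, was at 84.8 CPM against 1.04 to 3.38 CPM. STX1A, a membrane fusion protein, CAPN5, a calpain protease, and HERC5, an interferon-induced ligase, were 11.4-fold, 10.5-fold and 9.97-fold higher. NEAT1, the long non-coding RNA that builds nuclear paraspeckles, was chosen after its values were seen and was called higher, at 15109 CPM against 5139 to 7355 CPM. The 2 cultures given rotenone at 0.4 µM, of runs 5 and 6, shared the same controls. The limit of 20% mitochondrial UMIs removed 16.2% and 52.4% of their cells. TRIB3 was at 16.5 and 19.0 CPM and ASNS at 106 and 70.1 CPM there, next to 190 and 275 CPM at 0.2 µM. NR1D1 was at 862 and 1735 CPM there, next to 264 CPM. Some rises at 0.2 µM were absent at 0.4 µM. KCP was at 1.37 and 1.82 CPM, HK1 at 4.45 and 1.26 CPM and AKNA at 3.82 and 2.52 CPM, none above its DMSO range. ERN1, higher at 0.2 µM, was at 30.8 and 17.4 CPM, below its controls. DNAJA1, lower at 0.2 µM, was at 219 and 312 CPM, above its controls.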

How the data were processed

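HepaRG cells were profiled with the Parse single-cell kit. The authors deposited raw UMI counts per cell and gene from the Parse pipeline, aligned to GRCh38. No source used here states the pipeline version or gene annotation. UMI sums equalled the deposited cell table in all 12976 cells. GEO samples are 8 sublibraries that each hold all treatments, so groups came from the treatment named for each cell, and cultures with under 30 cells were left out.

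UMIs were summed per culture over cells that had 500 or more genes and no more than 20% MT- UMIs and scaled to CPM. edgeR 4.0.16 (quasi-likelihood, filterByExpr, total UMIs as library sizes, Benjamini-Hochberg) and DESeq2 1.42.0, as an alternative, were run in R 4.3.3. Other steps used Python 3.11.15, numpy 2.4.6, scipy 1.17.1 and pandas 2.3.3. A rotenone culture at 0 UMIs, or controls at 0, were set to a floor of 3 counts. Intervals of a ratio to run 5 are exact and conditional on the summed count. No doublet caller was run, so values per cell may include doublets. A cell was thinned by 1 seeded draw without replacement, and the share expected over all draws was computed exactly. The scripts were tested on simulated data. Positions and gene classes came from GENCODE 44, which held 62625 of 62703 gene IDs.

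Named genes were those the study names for rotenone or as liver cell markers, the 15 largest rises and 15 largest falls among called genes with a symbol, at least 50 CPM and a value outside the control range, and, of each of 42 lists with at least 3 members called one way, the 4 largest and any member called the other way. Others are said to be chosen after their values were seen, which also holds for genes named from lists with fewer called members and for CARS1 and TARS1. A few genes and 1 sequence that the rule would name are not reported here. The members, lists and tests were chosen with earlier results of these data known. Counts over lists carry no test of their own and are read against the shares called over all genes and over protein-coding genes. Alternatives were other scalings, cell filters, floors, weights and comparators, and each DMSO culture left out in turn.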

Additional observations from a re-analysis of the deposited data

Results flagged for a closer look

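Of 138 genes examined, 9 had 1 of the 4 DMSO cultures far from the other 3 in CPM, or 6.52%, and chance gives about 1 in 20. The DMSO culture of run 6 was high for PSAT1 (26.4 CPM, next 20.8), SLC1A4 (5.60 CPM, next 4.10), MARS1 (32.4 CPM, next 29.6) and AFM (324.9 CPM, next 214.8). The culture of run 5 was high for NDRG1 (61.5 CPM, next 36.1), G6PC1 (18.6 CPM, next 12.3) and FGF21 (0.0299 CPM from 1 UMI, with none in the others). The culture of run 4 was high for YARS1 (43.9 CPM, next 38.4) and HK1 (6.44 CPM, next 3.74). In these genes the rotenone culture lay outside the range of all 4.

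The cells above 20% mitochondrial UMIs, which the comparisons left out, also held the stress signal. In the 304 such rotenone cells TRIB3 was at 151 CPM and ASNS at 213 CPM, against 7.37 and 6.64 CPM in the 82 such DMSO cells of run 5.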

How the results depend on the processing

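The count of genes called higher by fold, 1541, became 2357 with DESeq2 size factors and 856 with a floor of 50 CPM, and the 2108 called lower became 850 at 50 CPM and 4791 at 1 CPM, as the floor admits fewer or more genes. Leaving out each DMSO culture in turn gave 1544 to 2264 higher and 2080 to 2416 lower. The highest came without run 5, when the second condition falls away. For edgeR the same gave 2806 to 4193 higher and 4450 to 5223 lower. With the run as a replicate block and the 0.4 µM cultures in the fit, edgeR placed 1565 genes higher and 3505 lower. Run numbers are not known to pair cultures, and the cause was not tested. DESeq2's Wald test gave 3141 and 5201. The other alternatives kept these counts within 1.5 times. The limit of 10% mitochondrial UMIs was not run, because 2 of the 5 cultures kept at least 30 cells and the rotenone culture kept 9.

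Shares of cells followed the depth. Without thinning, TRIB3, ASNS, NR1D1 and CPS1 were seen in 96.4%, 97.1%, 92.9% and 76.6% of rotenone cells and 40.2%, 43.7%, 69.1% and 78.1% of DMSO cells of run 5. At 5000 UMIs they were seen in 54.6%, 64.6%, 42.8% and 13.8% of rotenone cells and 3.54%, 4.82%, 13.8% and 35.4% of DMSO cells of run 5. Of 1242 log2 ratios of 138 genes under 9 alternatives, 0 of the called ones changed sign and 149, in 83 genes, moved by more than the spread between the DMSO cultures, 51 of them with run 5 alone. Of 253 list counts, 17 moved by over 1.5 times under another scaling or without the limit on mitochondrial UMIs. Leaving out the DMSO culture of run 4 for the mitochondrially encoded genes was added after seeing the data. Depth limits genes under a few CPM, above all in the DMSO cultures of runs 4 and 6.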
